A study of Homo sapiens with 9 samples.

Results

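The genes described here are 10 of the 11350 genes in the deposited counts table: PDE4D, SCG2 and 8 genes of cAMP signalling, namely the phosphodiesterases PDE4A, PDE7A and PDE8A, the protein kinase A subunits PRKACA, PRKACB, PRKAR1A and PRKAR2A, and the transcription factor CREB1. PDE4D and SCG2 were chosen because their counts were high in the mutant cells, so their values in those cells are given as a description with no test. The other 8 were chosen by gene family, with earlier results of these data known. RNA was sequenced from HCT116 cells, a human colorectal carcinoma line, in 3 forms with 3 libraries each and no drug treatment. HUWE1-P is the parental line. In HUWE1-CS cells the catalytic cysteine codon of HUWE1, a large HECT-type ubiquitin ligase, was replaced with a serine codon by CRISPR/Cas9 and a repair template, and in HUWE1-WT cells the same procedure put a cysteine codon back. In both edited lines the template also brought in a stretch of HUWE1 coding sequence and a blasticidin resistance gene, an insert that the parental locus lacks. Both edited lines therefore passed through guide transfection, drug selection and growth from single cells, which the parental line did not, and the sources used here do not say whether the 3 libraries of an edited line come from 1 clone or from several.

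Cyclic AMP (cAMP) is made by adenylyl cyclases downstream of receptors that couple to the stimulatory G protein. It binds the regulatory subunits of protein kinase A and thereby frees the catalytic subunits, which phosphorylate CREB1 among many other proteins, and phosphorylated CREB1 recruits the coactivators CREBBP and EP300 to genes that carry cAMP response elements. Phosphodiesterases hydrolyse cAMP and end the signal, and A-kinase anchoring proteins hold the kinase and the phosphodiesterases at defined sites in the cell. PDE4D belongs to the cAMP-specific PDE4 family, the target of rolipram. SCG2 encodes secretogranin II, an acidic protein of the regulated secretory granules of neurons and endocrine cells.

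The palindrome TGACGTCA is the consensus cAMP response element and TGACG, read on either strand, is its shorter form, so that each full element counts as 2 short matches. Both were searched in windows of 300 bases around annotated transcript starts, 250 upstream and 50 downstream, from RefSeq on GRCh38.p14. TGACGTCA was present in 1.85% of all 35116 windows and TGACG in 24.6%. Among the members, TGACGTCA occurred in 1 of 5 PDE4A windows and in 2 of 5 PRKAR1A windows, which overlap and hold the same element. TGACG occurred in 1 of 8 PDE4D windows, 1 of 5 PRKACB windows, 1 of 2 PRKACA windows, 1 of 5 PDE4A windows, 4 of 5 PRKAR1A windows and the single PRKAR2A window, and in none of the 3 PDE8A windows, the 6 windows of the related PDE4B or the single CREB1 window. SCG2 had no entry, and no PDE7A window was searched. The windows below are those of 2 genes that were lower in HUWE1-CS cells (PDE4A and PRKACB), of PRKAR1A, which did not pass the test, and of PDE4D. Capitals mark the matches.
PDE4A, chr19:10416523-10416822, plus strand: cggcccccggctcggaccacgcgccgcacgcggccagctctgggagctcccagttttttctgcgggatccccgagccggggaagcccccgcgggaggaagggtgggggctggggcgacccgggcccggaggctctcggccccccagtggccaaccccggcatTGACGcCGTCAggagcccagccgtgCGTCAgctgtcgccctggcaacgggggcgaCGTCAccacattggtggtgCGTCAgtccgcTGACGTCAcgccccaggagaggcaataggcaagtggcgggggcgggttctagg
PRKAR1A, chr17:68512180-68512479, plus strand: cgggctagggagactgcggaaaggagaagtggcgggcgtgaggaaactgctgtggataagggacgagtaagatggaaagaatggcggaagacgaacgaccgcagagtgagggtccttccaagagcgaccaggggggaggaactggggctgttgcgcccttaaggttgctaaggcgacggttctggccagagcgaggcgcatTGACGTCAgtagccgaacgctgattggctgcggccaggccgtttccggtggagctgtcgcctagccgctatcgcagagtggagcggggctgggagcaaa
PRKACB, chr1:84077829-84078128, plus strand: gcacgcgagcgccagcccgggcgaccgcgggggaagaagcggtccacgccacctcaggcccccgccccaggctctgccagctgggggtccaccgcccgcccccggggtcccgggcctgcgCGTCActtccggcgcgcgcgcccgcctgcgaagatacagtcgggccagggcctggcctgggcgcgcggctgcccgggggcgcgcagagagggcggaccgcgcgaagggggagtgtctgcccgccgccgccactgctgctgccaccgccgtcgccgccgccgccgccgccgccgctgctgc
PDE4D, chr5:59587576-59587875, minus strand: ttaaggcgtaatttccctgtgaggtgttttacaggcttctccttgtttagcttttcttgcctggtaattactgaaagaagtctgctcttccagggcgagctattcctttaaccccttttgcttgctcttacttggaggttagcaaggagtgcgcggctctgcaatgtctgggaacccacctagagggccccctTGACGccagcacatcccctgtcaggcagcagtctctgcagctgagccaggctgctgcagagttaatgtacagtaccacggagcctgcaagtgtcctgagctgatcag
The PDE4A window held 7 short matches, with its full element starting 3 bases upstream of the transcript start. In the PRKAR1A window the full element started 49 bases upstream. A match is a run of letters and not a measured site, and counts summed over a gene do not show which of its starts was used.

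The 9 libraries held 1610984 to 2060349 counts. Levels are given as CPM, the counts of a gene scaled to a common library total, with TMM-normalized library sizes, and a gene was called at a false discovery rate (FDR) of at most 0.01 in edgeR's quasi-likelihood test over all 11350 genes. By that rule HUWE1-CS and HUWE1-P cells differed in 17.0% of all genes, 8.46% higher and 8.58% lower. Against HUWE1-WT cells the share was 15.5%, with 7.42% higher and 8.08% lower. Between the control lines 0.0617% of genes were called. Both comparisons with HUWE1-CS cells use the same 3 HUWE1-CS libraries, and those with HUWE1-P cells share the parental libraries, so they are not independent. HUWE1 itself was at 561, 545 and 522 CPM in HUWE1-P cells, 498, 453 and 455 CPM in HUWE1-WT cells, and 345, 323 and 339 CPM in HUWE1-CS cells. It was lower in HUWE1-CS than in HUWE1-P cells (log2 fold change -0.69, SE 0.065, adjusted p = 1.06e-15, edgeR), and the total over the gene does not read the edited codon. Of the fixed colon epithelial markers 6 of 8 were in the table, with a summed level of 4115 to 4240 CPM in HUWE1-P, 4137 to 4533 in HUWE1-WT and 3670 to 4044 in HUWE1-CS libraries. EPCAM and CDH1 were called higher and KRT8 and KRT18 lower in HUWE1-CS cells, in both comparisons. The KRT18 calls were lost without HUWE1-CS replicate 1 (adjusted p = 0.0117 and 0.0387, edgeR), that of CDH1 against HUWE1-WT cells without HUWE1-WT replicate 2 (0.0160), and that of EPCAM against HUWE1-WT cells with total-count scaling, with DESeq2 and without HUWE1-WT replicate 1 or 3 or HUWE1-CS replicate 3 (up to 0.0431). None of the leukocyte (4) or endothelial (3) markers was in the table, and of the 5 fibroblast markers only COL1A1 was, at 8.71 to 14.8 CPM in HUWE1-CS and 17.996 to 25.6 CPM in the control libraries. COL1A1 was called lower against HUWE1-P (log2 fold change -0.96, adjusted p = 0.000901, edgeR) and HUWE1-WT cells (-0.88, adjusted p = 0.00346). Its calls were not followed under other settings. The part of these markers in the results was not tested. In bulk RNA, a change in the number of cells that express a gene and a change in RNA per cell cannot be told apart.

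PDE4D (Entrez 5144), on chr5:58264865-59817947 of GRCh37, minus strand, was close to undetected in the control lines. The 3 HUWE1-P libraries held 0, 1 and 0 counts and the 3 HUWE1-WT libraries 2, 0 and 1. The HUWE1-CS libraries held 14, 13 and 10, or 8.31, 7.37 and 5.81 CPM. Every HUWE1-CS library lay above every control library, and no control library exceeded the floor of 3 counts. On 37 counts against 1, the ratio of HUWE1-CS to HUWE1-P cells was 39.1, with an exact 95% interval of 6.60 to 1587. On 37 against 3, the ratio to HUWE1-WT cells was 12.6 (3.99 to 63.8), and against both control lines together it was 19.2 (6.91 to 74.3). These intervals cover counting error only. They do not allow for the choice of PDE4D by its HUWE1-CS counts and are not a test. With both control lines at or below the floor, no fold or test between them is given.

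Even in HUWE1-CS cells PDE4D was a low-abundance transcript. Its mean of 7.16 ± 1.26 CPM (SD, n = 3) was the 834th lowest of the 11350 genes in those cells, without correction for length. Its total of 41 counts over the 9 libraries was the lowest of any gene in the table. Its third-highest value, 5.75 CPM without TMM scaling, equalled the lowest third-highest value of any gene and corresponded to 10 counts in the library of median size, and 18 genes sat at this value. PDE4D is therefore in the table through its HUWE1-CS libraries alone, and a gene with the control level in all 9 libraries would not meet that limit.

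SCG2 (Entrez 7857), on chr2:224461658-224467079 of GRCh37, minus strand, was present at a low level in the control cells. It was at 22.3, 20.2 and 22.2 CPM in HUWE1-P cells and at 25.5, 15.3 and 18.6 CPM in HUWE1-WT cells. In HUWE1-CS cells it was at 148, 128 and 165 CPM, so the lowest HUWE1-CS library lay far above the highest control library. The fitted log2 fold change was 2.77 (SE 0.156) against HUWE1-P and 2.90 (SE 0.163) against HUWE1-WT cells. The ratios of normalized counts were 6.82 (5.61 to 8.35, counting error only) and 7.47 (6.08 to 9.26). Neither the SEs nor these intervals allow for the choice of SCG2 by its HUWE1-CS counts. In descending order of CPM, not corrected for length, SCG2 was the 7943rd gene of HUWE1-P cells and the 1458th of HUWE1-CS cells. SCG2 did not differ detectably between the control lines, a measure its choice did not use (log2 fold change -0.13, 95% interval -0.54 to 0.28, adjusted p = 0.983, edgeR).

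**Figure D1:**
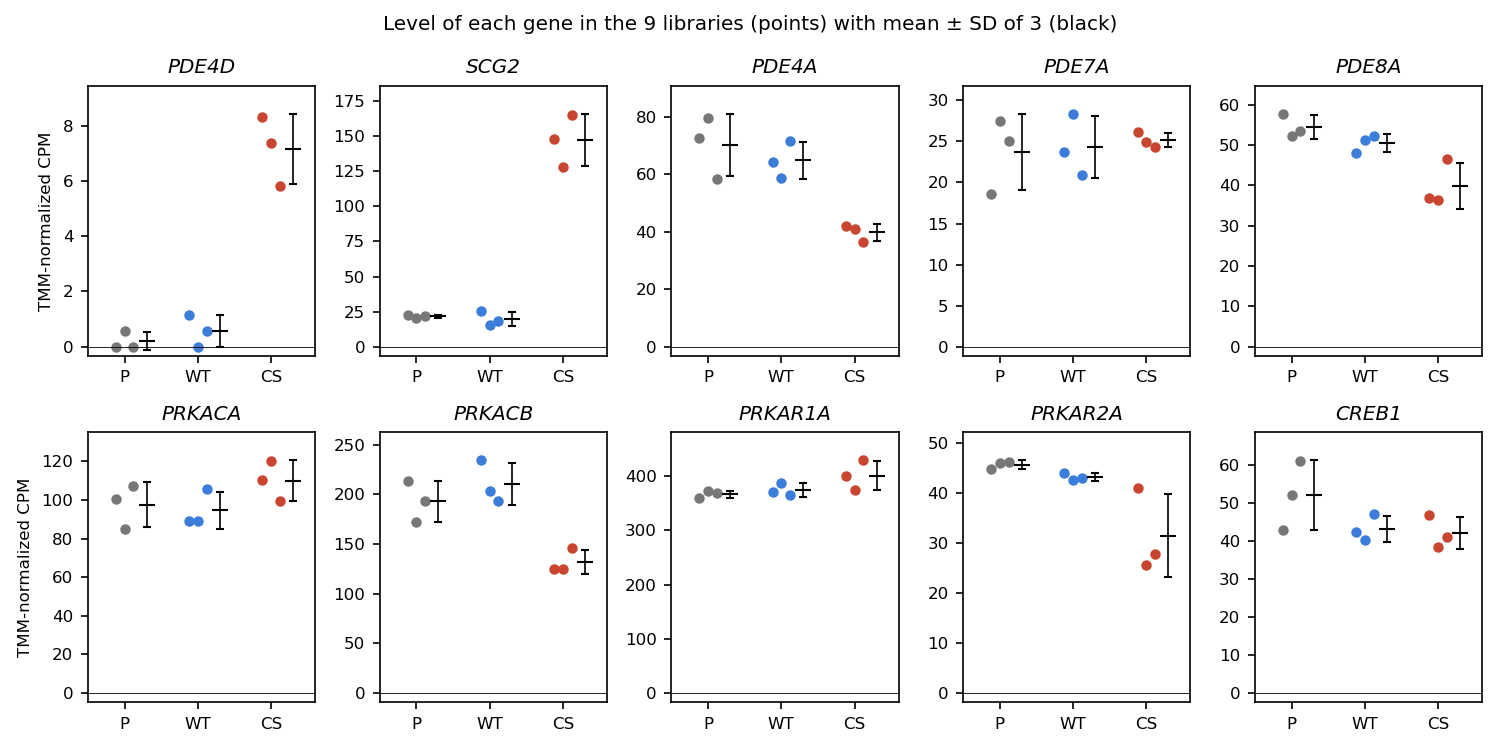
TMM-normalized CPM (y axis, from 0, a separate scale in each panel) of the 10 genes in libraries of the parental line (P) and of the edited lines (WT and CS). Points are libraries and black marks the mean ± SD of 3; PDE4D and SCG2 are higher, and PDE4A, PDE8A, PRKACB and PRKAR2A lower, in all 3 HUWE1-CS libraries than in any control library.

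The rest of the granule machinery was mostly out of the table. Of the listed granin and secretory granule genes SCG2 and 4 others were measured, and the granins CHGA, CHGB, SCG3 and SCG5 and the vesicle protein gene SYP were not among them. CPE, which trims propeptides in the granule, rose from 36.6 ± 5.17 to 52.6 ± 3.24 CPM against HUWE1-P cells (log2 fold change 0.51, adjusted p = 0.00457, edgeR). ENO2, the neuron-enriched enolase, rose by 0.45 (adjusted p = 0.00447). Neither passed against HUWE1-WT cells (adjusted p = 0.0678 and 0.0642), where both stood at intermediate values of 41.4 and 52.7 CPM. Both calls were lost with DESeq2 and without single libraries: CPE without HUWE1-P replicate 1, HUWE1-P replicate 2 or HUWE1-CS replicate 1 (adjusted p up to 0.0396), and ENO2 without HUWE1-P replicates 1 or 3 or HUWE1-CS replicates 2 or 3 (up to 0.0571). VGF, a granule peptide precursor and CREB target, gave 0.37 (adjusted p = 0.0421), and SYT1, the calcium sensor of exocytosis, gave -0.32 (adjusted p = 0.103). The list holds ENO2, which encodes an enolase and not a granule protein. The median over the 4 genes, ENO2 included, was 0.41 against HUWE1-P and 0.20 against HUWE1-WT cells, beside -0.007 and -0.0006 over all genes.

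Among the 8 members chosen by family, 3 of 8 were called against HUWE1-P cells and 2 of 8 against HUWE1-WT cells, all of them lower, beside 8.58% and 8.08% of all genes called lower. The medians were -0.38 and -0.19. In 4 of the 8 all HUWE1-CS libraries lay below all 6 control libraries, against 26.3% of all genes that lay beyond the controls in either direction. Nothing is read from counts over so few genes, and the members are described by gene.

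PDE4A (chr19:10527449-10580306, GRCh37), a close relative of PDE4D with the same substrate, fell. It was at 72.6, 79.7 and 58.3 CPM in HUWE1-P and at 64.3, 58.9 and 71.5 CPM in HUWE1-WT cells, and at 42.1, 40.8 and 36.6 CPM in HUWE1-CS cells. The control lines overlapped each other and neither overlapped the mutant. Its fitted log2 fold change was -0.81 (SE 0.137, adjusted p = 1.06e-06, edgeR) against HUWE1-P and -0.70 (SE 0.140, adjusted p = 3.41e-05) against HUWE1-WT cells. PDE4A overlaps CDC37 on the other strand, and whether counting used strand is not given in the sources used here, so reads of the shared stretch cannot be told apart.

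PDE8A, a phosphodiesterase of high affinity for cAMP, was at 57.7, 52.2 and 53.5 CPM in HUWE1-P, 48.1, 51.3 and 52.3 CPM in HUWE1-WT, and 36.8, 36.3 and 46.4 CPM in HUWE1-CS cells. HUWE1-CS libraries lay below all controls, yet the gene narrowly missed the threshold against HUWE1-P cells (log2 fold change -0.45, SE 0.140, adjusted p = 0.0105, edgeR) and missed it against HUWE1-WT cells (-0.34, adjusted p = 0.0660). It passed the former with total-count scaling (adjusted p = 0.00702), without HUWE1-WT replicate 1 (0.00999) and without HUWE1-CS replicate 3 (0.00502). PDE7A, another cAMP-specific enzyme, was at 18.6 to 27.5 CPM in HUWE1-P, 20.9 to 28.4 in HUWE1-WT and 24.4 to 26.1 in HUWE1-CS libraries. The 3 lines overlapped, and the 95% interval of the change against HUWE1-P cells, on the log2 scale, ran from -0.31 to 0.45.

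The wider phosphodiesterase family went in both directions. Of 16 listed cAMP-hydrolysing enzymes PDE4D and 6 others were in the table. Against either control 1 of these 6 was called higher and 2 lower, beside 17.0% and 15.5% of all genes called. Nothing is read from counts over so few genes. PDE4B, the isoenzyme whose gene is itself a cAMP-responsive target, rose from 104, 116 and 106 CPM in HUWE1-P and 120, 110 and 98.3 CPM in HUWE1-WT cells to 222, 198 and 215 CPM in the mutant. The fitted change was 0.96 (SE 0.0871, adjusted p = 8.63e-17, edgeR) against HUWE1-P and 0.95 (SE 0.0876, adjusted p = 2.11e-16) against HUWE1-WT cells. PDE3B, the cGMP-inhibited enzyme known from insulin action, fell from 15.5, 24.7 and 32.8 CPM in HUWE1-P and 19.1, 15.3 and 18.02 CPM in HUWE1-WT cells to 6.53, 6.24 and 8.71 CPM. The fitted changes were -1.79 (SE 0.288, adjusted p = 3.80e-08) and -1.28 (SE 0.302, adjusted p = 0.000312). PDE2A, a dual-substrate enzyme, was near the table's lower limit at 4.06 to 9.27 CPM over all libraries and did not pass (-0.31, adjusted p = 0.600, and -0.50, adjusted p = 0.347). PDE9A, the cGMP-specific enzyme and the only measured gene of its list, did not pass either (-0.10, adjusted p = 0.776).

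**Figure D2:**
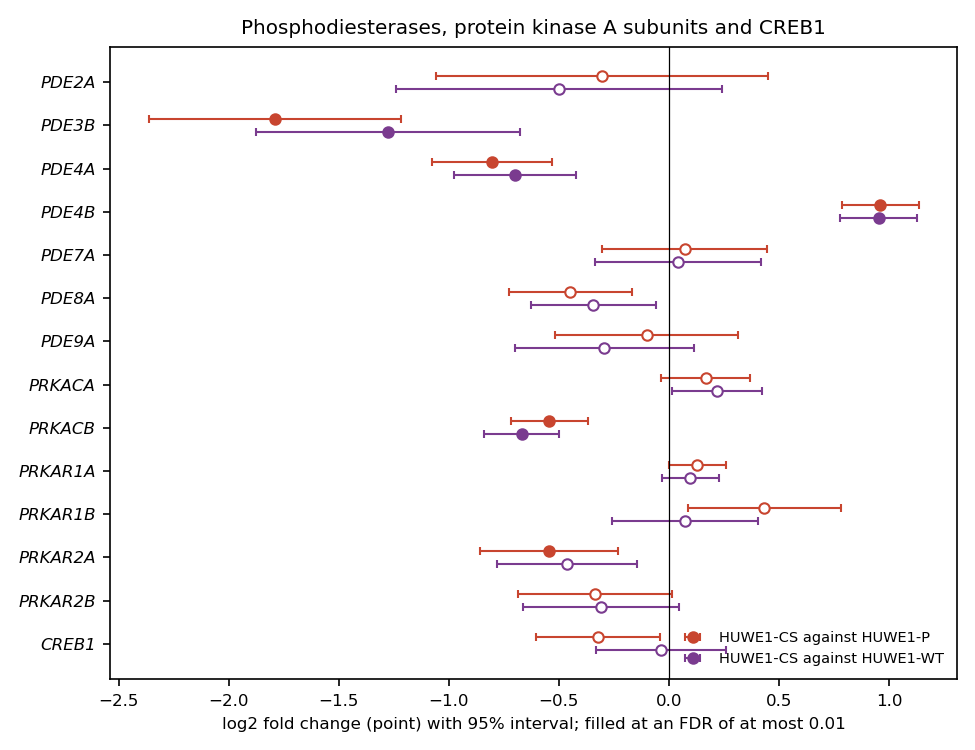
Fitted log2 fold change (x axis) with its 95% interval for phosphodiesterases, protein kinase A subunits and CREB1, in HUWE1-CS against HUWE1-P (red) and HUWE1-WT cells (purple). Filled points passed an FDR of at most 0.01; PDE4B is higher, while PDE3B, PDE4A and PRKACB are lower in both comparisons and PRKAR2A is lower against HUWE1-P cells.

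Levels of different genes were compared per kilobase of the canonical GENCODE transcript. On this scale PDE4D was 0.712 to 1.02 CPM per kb in HUWE1-CS libraries, while PDE4B was 43.8 to 49.0 CPM per kb. PDE4D thus made up 1.28% to 1.74% of the summed PDE4 level in HUWE1-CS cells, PDE4A 13.4% to 15.7% and PDE4B 82.6% to 85.3%. In HUWE1-P cells PDE4A was 33.8% to 39.2% and PDE4B 60.8% to 66.2% of that sum, and the HUWE1-WT shares of PDE4A, 33.0% to 40.2%, overlapped these. The summed PDE4 level was 35.2 to 42.0 CPM per kb in HUWE1-P, 36.2 to 39.7 in HUWE1-WT and 53.0 to 58.6 in HUWE1-CS libraries. Over all 7 cAMP-hydrolysing enzymes measured, the sum was 58.9 to 64.8, 57.2 to 59.8 and 68.4 to 73.8 CPM per kb. These shares are descriptions of transcript levels, with no test, and they rest on 1 assumed transcript length a gene.

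**Figure D3:**
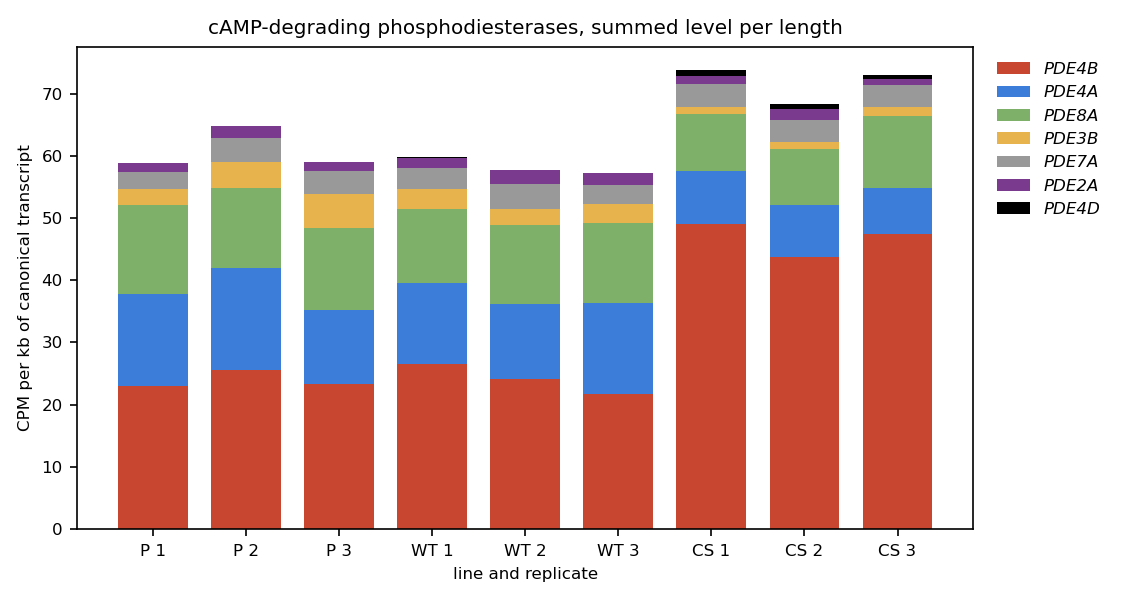
Summed level of the 7 measured cAMP-degrading phosphodiesterases (y axis, CPM per kb of canonical transcript, from 0) in each library, stacked by gene. HUWE1-CS bars are 68.4 to 73.8 CPM per kb high against 57.2 to 64.8 in the controls; PDE4B (red) fills 64.1% to 66.4% of them against 37.9% to 44.3%, and PDE4D (black) is the thin band on top.

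Of the catalytic subunits of protein kinase A, PRKACB (chr1:84543745-84704181, GRCh37) fell and PRKACA did not pass the test. PRKACB was at 213, 172 and 194 CPM in HUWE1-P, 234, 203 and 194 CPM in HUWE1-WT, and 125, 125 and 146 CPM in HUWE1-CS cells. All HUWE1-CS libraries were below all controls. The log2 fold change was -0.54 (SE 0.0872, adjusted p = 3.26e-07, edgeR) against HUWE1-P and -0.67 (SE 0.0866, adjusted p = 5.60e-10) against HUWE1-WT cells. PRKACA, at 84.7 to 107 CPM in HUWE1-P, 88.9 to 106 in HUWE1-WT and 99.3 to 120 in HUWE1-CS libraries, gave 0.17 (95% interval -0.03 to 0.37, adjusted p = 0.230) and 0.22 (0.01 to 0.42, adjusted p = 0.114). Per kilobase, PRKACA was 43.99% to 48.0% of the catalytic transcripts in HUWE1-P, 38.8% to 47.6% in HUWE1-WT and 53.0% to 61.6% in HUWE1-CS libraries.

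Among the regulatory subunits, PRKAR1A was the most abundant per length and did not pass the test in either comparison. It was at 359 to 372 CPM in HUWE1-P, 364 to 388 in HUWE1-WT and 374 to 428 in HUWE1-CS libraries (log2 fold change 0.13, 95% interval -0.00 to 0.26, adjusted p = 0.140, against HUWE1-P cells, edgeR). PRKAR2A (chr3:48782030-48885307, GRCh37), a type II subunit that docks to anchoring proteins, was at 44.7, 46.0 and 46.3 CPM in HUWE1-P and 44.04, 42.5 and 43.0 CPM in HUWE1-WT cells. In HUWE1-CS cells it was at 40.9, 25.5 and 27.9 CPM: replicate 1 lay just under the controls and the other libraries far under them. It was called lower against HUWE1-P cells (-0.54, SE 0.158, adjusted p = 0.00517) and not against HUWE1-WT cells (-0.46, adjusted p = 0.0234). The call was lost with DESeq2 (adjusted p = 0.0512) and without HUWE1-P replicate 1 (0.0126), 2 (0.0147) or 3 (0.0217) or HUWE1-CS replicate 2 (0.0750) or 3 (0.0433), while without HUWE1-CS replicate 1 the gene also passed against HUWE1-WT cells (0.00248). PRKAR1B gave 0.43 (adjusted p = 0.0539) and PRKAR2B -0.34 (adjusted p = 0.156) against HUWE1-P cells. The ratio of summed catalytic to summed regulatory transcripts per kilobase was 0.616 to 0.781 in HUWE1-P, 0.641 to 0.756 in HUWE1-WT and 0.562 to 0.634 in HUWE1-CS libraries, which lay below all HUWE1-WT libraries and overlapped the HUWE1-P libraries. PKIG, the only kinase inhibitor gene measured, did not pass (0.29, adjusted p = 0.339).

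CREB1 was at 42.8, 52.2 and 61.2 CPM in HUWE1-P, 42.3, 40.4 and 47.1 CPM in HUWE1-WT, and 46.9, 38.6 and 41.2 CPM in the mutant. The groups overlapped. Its log2 fold change was -0.32 (SE 0.142, adjusted p = 0.0835, edgeR) against HUWE1-P and -0.03 (95% interval -0.33 to 0.26, adjusted p = 0.903) against HUWE1-WT cells. Of the 8 measured genes of the CREB family and its coactivators, only CREBBP was called, lower against HUWE1-P cells (-0.40, adjusted p = 0.00234) and not against HUWE1-WT cells (-0.26, adjusted p = 0.0708). Over all genes 17.0% and 15.5% were called in these comparisons. The CREBBP call was lost with DESeq2 and without HUWE1-P replicate 3, HUWE1-CS replicate 1 or HUWE1-CS replicate 2 (adjusted p up to 0.0296). CREB1 overlaps METTL21A and PDE7A overlaps MTFR1, with the same uncertainty as for PDE4A.

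Over all lists of the pathway, 61 of 124 genes other than PDE4D were in the table. Against HUWE1-P cells 8 were called higher and 13 lower, 34.4% of those tested beside 17.0% of all genes, and against HUWE1-WT cells 6 higher and 11 lower, 27.9% beside 15.5%. The medians were -0.10 and -0.06, beside -0.007 and -0.0006 over all genes. The lists were chosen with earlier results of these data known, so these shares are a description and were not tested. Of the calls, 15 were shared, 71.4% of the former and 88.2% of the latter, in comparisons that use the same HUWE1-CS libraries. With a log2 fold change of at least 1 in either direction also required, 5 genes remained in each comparison, 1 higher and 4 lower. DESeq2 called 14 and 12. The shares of all genes under these rules are not given here, so nothing is read from these counts. Between HUWE1-WT and HUWE1-P cells edgeR, DESeq2 and limma-voom called 0 of the 61, beside 0.0617% of all genes in edgeR. In edgeR 7 of the 61 had an unadjusted p below 0.05, beside 629 of all 11350 genes.

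At the membrane, 2 of 5 G protein alpha subunits rose, beside 17.0% and 15.5% of all genes called in either direction. Nothing is read from counts over lists this short. GNAS, which encodes the stimulatory subunit, rose from 600 ± 9.21 CPM in HUWE1-P and 625 ± 31.7 in HUWE1-WT cells to 753 ± 43.4 CPM (log2 fold change 0.33, adjusted p = 6.70e-06, and 0.27, adjusted p = 0.000285, edgeR). GNAI2, an inhibitory subunit, rose by 0.29 (adjusted p = 0.00180) and 0.28 (adjusted p = 0.00219), and both GNAI2 calls were lost with DESeq2 and without HUWE1-CS replicate 2, without HUWE1-P replicate 1 in the former and without HUWE1-WT replicate 1 in the latter (adjusted p up to 0.0353 and 0.0297). Of 29 receptors that couple to the stimulatory G protein 5 were measured. HTR7, a serotonin receptor, fell from 58.0 ± 6.26 and 53.9 ± 1.65 to 33.2 ± 4.10 CPM (-0.79, adjusted p = 6.51e-06, and -0.70, adjusted p = 0.000107). ADORA2B, an adenosine receptor, rose against HUWE1-P cells (0.45, adjusted p = 0.00234) and did not pass against HUWE1-WT cells (0.25, adjusted p = 0.112). The ADORA2B call was lost with DESeq2 and without HUWE1-P replicate 3 or HUWE1-CS replicate 3 (adjusted p up to 0.0834). Of 4 adenylyl cyclases measured ADCY7 was called lower in both comparisons (-0.53, adjusted p = 0.00671, and -0.55, adjusted p = 0.00572). Both ADCY7 calls were lost with DESeq2 and without HUWE1-CS replicate 1 or 3, the former also without HUWE1-P replicate 2 or 3 and the latter without any HUWE1-WT library (adjusted p up to 0.127 and 0.0543).

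Of 16 listed anchoring proteins 9 were measured. AKAP12, also called gravin, a scaffold for protein kinases A and C, fell from 2036 ± 19.9 CPM in HUWE1-P and 1824 ± 58.1 in HUWE1-WT cells to 1076 ± 64.3 CPM (-0.92, SE 0.0542, adjusted p = 1.11e-27, and -0.76, SE 0.0543, adjusted p = 4.18e-22, edgeR). AKAP9, a centrosomal and Golgi scaffold, rose by 0.46 (adjusted p = 0.00166) and 0.63 (adjusted p = 2.95e-05). The former AKAP9 call was lost with DESeq2 and without HUWE1-P replicate 1 or HUWE1-CS replicate 3 (adjusted p up to 0.0262). AKAP11 fell against HUWE1-P cells (-0.58, adjusted p = 0.000159, and 0.0119 without HUWE1-P replicate 3) and did not pass against HUWE1-WT cells (-0.31, adjusted p = 0.0722). The other arm of cAMP signalling, through Rap1, had 2 of 4 genes in the table, RAP1A and RAP1B. The exchange factors that cAMP activates were not measured. Neither RAP1A nor RAP1B was called, beside 17.0% and 15.5% of all genes, and nothing is read from 2 genes. RAP1B, which had more counts than RAP1A, gave -0.08 (adjusted p = 0.599). Of the 3 salt-inducible kinases, which restrain CREB coactivators, SIK1 was called lower against HUWE1-WT cells (-0.63, adjusted p = 0.00355) and not against HUWE1-P cells (-0.42, adjusted p = 0.0716). The SIK1 call was lost with DESeq2 and without HUWE1-WT replicates 1 or 2 or HUWE1-CS replicates 2 or 3 (adjusted p up to 0.0422).

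**Figure D4:**
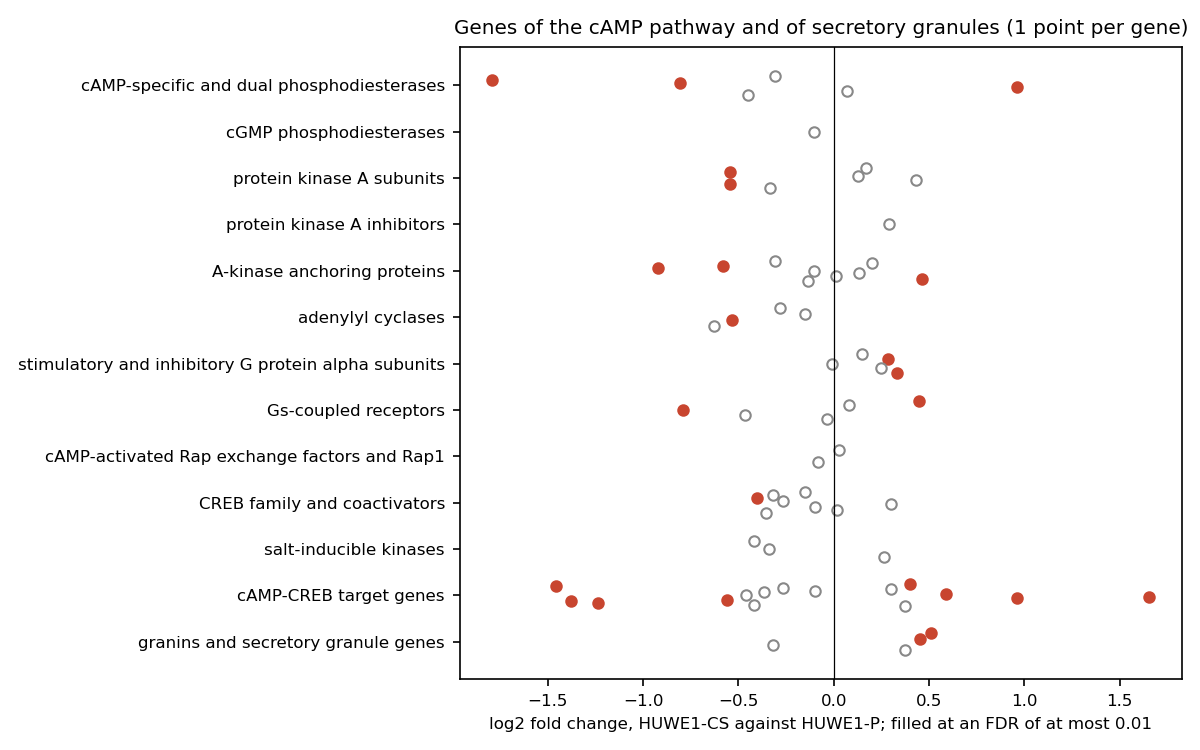
Fitted log2 fold change in HUWE1-CS against HUWE1-P cells (x axis) for each measured gene of the cAMP pathway lists and of the secretory granule list (rows), without PDE4D and SCG2. Filled points passed an FDR of at most 0.01; 8 genes of the cAMP lists passed on the higher side and 13 on the lower side. The target genes, in the row above the granule list at the bottom, spread to both sides.

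Known transcriptional targets of cAMP and CREB were called in both directions. Of 23 listed targets 15 were measured, with 4 higher and 4 lower against HUWE1-P cells and 3 higher and 5 lower against HUWE1-WT cells. That is 53.3% of the measured targets in either comparison, beside 17.0% and 15.5% of all genes. This list was chosen with earlier results of these data known, so the shares are a description and were not tested. The medians were -0.26 and -0.28, beside -0.007 and -0.0006 over all genes. Among the higher ones, NR4A2, an orphan nuclear receptor, went from 8.69, 9.54 and 6.26 CPM in HUWE1-P and 14.5, 8.73 and 6.98 CPM in HUWE1-WT cells to 20.8, 33.5 and 22.1 CPM in the mutant. The fitted changes were 1.65 (SE 0.275, adjusted p = 1.72e-07, edgeR) and 1.34 (SE 0.259, adjusted p = 1.00e-05). AREG, the growth factor amphiregulin, rose by 0.40 (adjusted p = 0.000333) and 0.32 (adjusted p = 0.00445). The former AREG call was lost without HUWE1-P replicate 3 (adjusted p = 0.0169), and the latter with DESeq2 and without HUWE1-WT replicate 1 or 2 or HUWE1-CS replicate 2 or 3 (up to 0.0586). JUNB, an AP-1 subunit, rose against HUWE1-P cells (0.59, adjusted p = 1.05e-05) and did not pass against HUWE1-WT cells (0.27, adjusted p = 0.0542). PDE4B, described above, was the fourth.

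The lower targets included genes of growth, clock and G protein control. BDNF, a neurotrophin, was at 102, 109 and 84.8 CPM in HUWE1-P and 92.1, 91.6 and 83.1 CPM in HUWE1-WT cells, and at 29.7, 36.3 and 41.2 CPM in HUWE1-CS cells, with log2 fold changes of -1.46 (SE 0.135, adjusted p = 5.04e-17, edgeR) and -1.31 (SE 0.137, adjusted p = 2.65e-14). PER2, a circadian clock repressor, fell from 29.5 ± 3.61 and 27.4 ± 7.50 to 11.4 ± 2.89 CPM (-1.38, adjusted p = 4.29e-07, and -1.26, adjusted p = 6.31e-06). RGS2, which limits G protein signals, fell from 29.1 ± 8.92 and 31.1 ± 0.816 to 12.3 ± 4.16 CPM (-1.24, adjusted p = 4.67e-06, and -1.32, adjusted p = 1.00e-06). PER1 fell against HUWE1-P cells (-0.56, adjusted p = 0.00148) and just missed the threshold against HUWE1-WT cells (-0.47, adjusted p = 0.0103). The PER1 call was lost with DESeq2 and without HUWE1-P replicate 1 or 3 or HUWE1-CS replicate 1 (adjusted p up to 0.0409). NR4A1 was called lower against HUWE1-WT and not against HUWE1-P cells (-0.76, adjusted p = 0.00462, against -0.46, adjusted p = 0.122), and that call was lost with DESeq2 and without any HUWE1-WT library or HUWE1-CS replicate 1 or 3 (up to 0.0460). The difference between the control lines was not called for any of these genes.

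Genes next to PDE4D and SCG2 were read to describe their chromosomal surroundings. Of the 10 nearest measured genes around PDE4D, 1 was called when the mutant was compared with HUWE1-P cells, beside 17.0% of all genes, with a range of -0.37 to 0.78 and a median of 0.02. That gene was PLK2, a polo-like kinase 509 kb away (log2 fold change 0.78, adjusted p = 1.42e-09, edgeR). The nearest gene, DEPDC1B at 74.8 kb, gave 0.06 (adjusted p = 0.765). Around SCG2, 4 of 10 were called: SLC4A3 (0.91, at 3955 kb) and SERPINE2 (0.37, at 373 kb) were higher, FARSB (-0.67, at 941 kb) and ACSL3 (-0.29, at 652 kb) lower. The nearest to SCG2, AP1S3 at 65.3 kb, gave -0.17 (adjusted p = 0.100). All 5 were also called against HUWE1-WT cells. The calls of PLK2 and FARSB were kept under other scalings, tools and without any single library. The SLC4A3 call against HUWE1-WT cells was lost with DESeq2 (adjusted p = 0.0767), with total-count scaling, with these lines fitted alone, and without HUWE1-P replicate 1, HUWE1-WT replicate 2 or 3 or any HUWE1-CS library (up to 0.0712). The SERPINE2 calls were lost with DESeq2 and without HUWE1-CS replicate 2 in both comparisons, without HUWE1-P replicate 3 in the former (up to 0.0207), and with total-count scaling and without any HUWE1-WT library or HUWE1-CS replicate 3 in the latter (up to 0.0531). The ACSL3 calls were lost without HUWE1-CS replicate 3 in both (0.0403 and 0.0153), the former also with DESeq2 and without HUWE1-P replicate 1 or 2 or HUWE1-CS replicate 2.

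Over the 9 libraries the genes whose log2 CPM followed PDE4D most closely were LRRC41 (Pearson's r = 0.984), NCOA5, CDH3, ARFIP2 and NTSR1 (0.976). Those closest to SCG2 were DDR1 (0.991), PRKCSH, TSC22D1, COL18A1 and MTUS1 (0.987). PDE4D and SCG2 had r = 0.962 with each other, which made SCG2 the 33rd closest gene to PDE4D and PDE4D the 43rd closest to SCG2. An r of at least 0.95 was reached by 68 genes with PDE4D and by 72 with SCG2. These are descriptions over 9 points that share 3 lines, and the step between HUWE1-CS and control libraries fixes most of each value. Ranked by Spearman's rho, 1 of the 5 stayed among the closest 5 for each gene.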

How the data were processed

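Messenger RNA of the parental and both edited lines, 3 libraries each, was sequenced on a NovaSeq. The deposited values are raw counts per gene with Entrez identifiers and symbols, which the authors made from reads demultiplexed with bcl2fastq 2.20 and aligned with STAR 2.5.4 to hg19, per the submitters' processing notes. The counting tool, annotation and strand setting are not given in the sources used here. The deposited comparison tables hold the authors' fold changes and p-values from edgeR 3.26.8 and were not used.

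The members and gene lists were chosen with earlier results of these data known. Counts were normalized by TMM and fitted over all 9 libraries with line as the only term in edgeR 4.0.16 (R 4.3.3), with the earlier quasi-likelihood estimator and Benjamini-Hochberg adjustment over 11350 genes. filterByExpr removed none. The 147 genes without a symbol held 0.505% of counts and stayed in the fit. Genes were named by rule: every member, every called gene of the cAMP lists, the most abundant gene of a list without a call, HUWE1, the 5 genes most like PDE4D and SCG2, and their nearest neighbours. CPE, ENO2, VGF, SYT1, PDE2A, the other protein kinase A subunits and the cell type markers were named beside that rule after their values were seen. For correlations a prior count of 2 was added before taking log2 CPM. Positions come from GENCODE on GRCh37, the same build as hg19, for 11114 genes. In data simulated for HUWE1-CS against HUWE1-P cells (11350 genes, 200 changed, 3 sets), 81% of changes of 1 and 37.3% of changes of 0.5 on the log2 scale were called, with 4 false among 359 calls. The simulated spread depended only on the level of a gene, and the 200 changed genes were fewer than the 1934 called in the data. These rates may therefore not hold for the data. Replicates of a line differed by more than sampling noise. The paper calls the 3 replicates biological, while the labels name no separate cultures. The p-values measure the spread between these libraries. Alternatives were other size factors, DESeq2 1.42.0, limma-voom (limma 3.58.1), other edgeR estimators, a replicate block, a count minimum of 10, each pair of lines alone, other thresholds, and leaving out each library.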

Additional observations from a re-analysis of the deposited data

How the results depend on the processing

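Of 60 called values named, those of COL1A1 not included, 35 kept their call under the other scalings, tools and estimators, the replicate block, the count minimum, the fits of each pair of lines and the fits without each library. Among these were those of PDE4A, PRKACB, PDE4B, PDE3B, AKAP12, GNAS, HTR7, NR4A2, BDNF, PER2, RGS2 and HUWE1 in both comparisons with HUWE1-CS cells. The other 25 lost it in at least 1, each given beside its result. Called genes of the cAMP lists numbered 21 of 61 against HUWE1-P and 17 of 61 against HUWE1-WT cells, beside 17.0% and 15.5% of all genes. They numbered 5 and 5 where a change of at least 1 on the log2 scale was also required. Leaving out each library gave 14 to 24 and 12 to 18, and 0 to 0 between the control lines. The 14 came without HUWE1-P replicate 3 and the 12 without HUWE1-WT replicate 1. Deviations of same-numbered libraries from the means of their lines had correlations of -0.032 to 0.066, beside -0.068 to 0.027 for differently numbered libraries. Whether same-numbered libraries shared a culture or a preparation was not tested. With the replicate block the counts of called genes were 23, 17 and 0. The shares of all genes under these other rules are not given here, so nothing is read from how the counts moved. Signs turned only for values that were never called. Over the fits that each left out 1 library, the log2 fold change between the control lines ran from -0.35 to 0.033 for SCG2, from -0.24 to 0.0011 for PDE4A, from -0.10 to 0.14 for PDE7A and from -0.14 to 0.034 for PRKACA. For PDE7A it ran from -0.059 to 0.18 against HUWE1-P and from -0.055 to 0.18 against HUWE1-WT cells, and for CREB1 from -0.12 to 0.034 against HUWE1-WT cells. The cause was not tested. The log2 fold change of SCG2 stayed between 2.68 and 2.87 against HUWE1-P and between 2.74 and 3.12 against HUWE1-WT cells. Without HUWE1-P replicate 2 the remaining parental libraries held 0 counts of PDE4D, so no fitted fold is given there, and a minimum of 10 counts in every library removes PDE4D. At 41 counts in all, depth limits every value of PDE4D.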
